A study of Homo sapiens with 4 samples.

Results

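The genes measured here were 10 long noncoding RNAs that have been studied in neuroblastoma or in other cancers: HAND2-AS1, CASC15, NBAT1, MEG3, MIAT, MALAT1, NEAT1, MIR17HG, DLX6-AS1 and ZFPM2-AS1. They were chosen by name, all 10 were present in the deposited table of 64252 genes, and all 10 were among the 18779 genes with enough counts to be tested. The choice was made with results of this comparison in view, HAND2-AS1 in particular, so the levels, fold changes and calls of the 10 are given as a description and without p-values. ZFPM2-AS1 passed the filter on low counts only through the libraries in which it was high.

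The study depleted SAPCD2, a protein with roles in mitotic spindle orientation and cell polarity, in SK-N-BE(2), an established MYCN-amplified neuroblastoma cell line. The control cells carried a scrambled short hairpin RNA (sh-Scb) and the depleted cells a hairpin against SAPCD2 (sh-SAPCD2), with 2 RNA sequencing libraries in each group. Both groups were, by the study's methods, puromycin-selected lentiviral populations of that line, and the labels do not say which hairpin against SAPCD2 was used or whether the libraries of a group came from separate cultures, so the p-values below measure the spread between these libraries, which may be technical. SAPCD2 itself stood at 83.6 and 82.2 CPM (read counts divided by the effective size of each library) in the control libraries and at 35.4 and 52.5 CPM in the sh-SAPCD2 libraries, a log2 fold change of -0.91 (SE 0.193, adjusted p = 0.0206, from the quasi-likelihood test of edgeR adjusted over all tested genes by the Benjamini-Hochberg method). The depletion was therefore partial, and without a filter on low counts its adjusted p was 0.0749.

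Long noncoding RNAs are transcripts over the length of small RNAs that are not translated into a known protein. Some act where they are made, on the gene next to them, some build nuclear bodies, and some are precursors from which microRNAs are cut. In neuroblastoma, a tumour of the sympathetic nervous lineage, several lie beside the transcription factors that define that lineage or in loci where common variants carry risk.

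Sequences of 2 features of the members are shown as background to the measurements. The first is the microRNA content of MIR17HG, the host transcript of the miR-17~92 cluster, which lies at chr13:91347686-91397592 on the plus strand (hg38). Gene counts measure the host transcript and not the mature microRNAs. The main arm of each of its 6 hairpins, from RefSeq (GRCh38.p14), is given 5′ to 3′ with the seed, bases 2 to 8, in capitals.
hsa-miR-17-5p: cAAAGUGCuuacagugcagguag
hsa-miR-20a-5p: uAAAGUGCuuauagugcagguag
hsa-miR-18a-5p: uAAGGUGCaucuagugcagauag
hsa-miR-19a-3p: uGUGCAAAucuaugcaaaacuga
hsa-miR-19b-3p: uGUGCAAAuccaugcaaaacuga
hsa-miR-92a-3p: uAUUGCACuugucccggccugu
The 6 arms carried 4 different seeds. miR-17-5p and miR-20a-5p shared a seed, as did miR-19a-3p and miR-19b-3p.

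The second is the start region shared by HAND2-AS1 and HAND2, from which the 2 genes are transcribed away from each other. RefSeq gives HAND2-AS1 another window, chr4:173528350-173528649, which lies within HAND2 on the opposite strand, so the pair is not only divergent. The nearest RefSeq start sites were 229 bp apart (173530458 for HAND2-AS1 on the plus strand and 173530229 for HAND2 on the minus strand of chromosome 4, GRCh38.p14), and their 300-base promoter windows had 272 bases in common. The HAND2-AS1 window, chr4:173530208-173530507 on the plus strand, is shown because both genes start within it and their levels are compared further on, with the 2 matches to CANNTG, the general E-box, in capitals.
HAND2-AS1: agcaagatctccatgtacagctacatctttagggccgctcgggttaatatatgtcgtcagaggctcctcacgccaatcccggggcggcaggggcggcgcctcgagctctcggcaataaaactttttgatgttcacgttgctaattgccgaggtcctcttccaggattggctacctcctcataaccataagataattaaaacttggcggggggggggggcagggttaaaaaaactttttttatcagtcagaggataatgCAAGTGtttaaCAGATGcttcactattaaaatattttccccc
CANNTG was found in 68.7% of the 35116 promoter windows of the same length in the RefSeq table, so most windows hold it. Across the 12 windows of the 8 members that were searched, on both strands, none held CACGTG, the E-box that MYC and MYCN bind best (7.26% of all windows), or any of the E2F motifs TTTCCCGC, TTTGGCGC, TTTCGCGC and TTTGCCGC (3.31% of all windows). These counts describe the letters in the windows only. NEAT1 and ZFPM2-AS1 were not searched.

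Of the 10 members, 5 passed the threshold used for a differentially expressed gene, an adjusted p under 0.05 with a log2 fold change beyond 1 in either direction. MIAT and ZFPM2-AS1 were higher in sh-SAPCD2 cells, HAND2-AS1, NBAT1 and DLX6-AS1 were lower, and CASC15, MEG3, MALAT1, NEAT1 and MIR17HG did not pass. Of all tested genes, 4.69% passed in the higher and 5.15% in the lower direction, and of the 2347 tested long noncoding RNAs 3.41% and 7.93%. Since the set was chosen with this contrast known, nothing is read from its share. The 2 groups of libraries did not overlap for 7 members, and for 67.0% of all tested genes. The median log2 fold change was -0.094 over the members, 0.017 over all tested genes and -0.16 over the tested long noncoding RNAs.

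**Figure D1:**
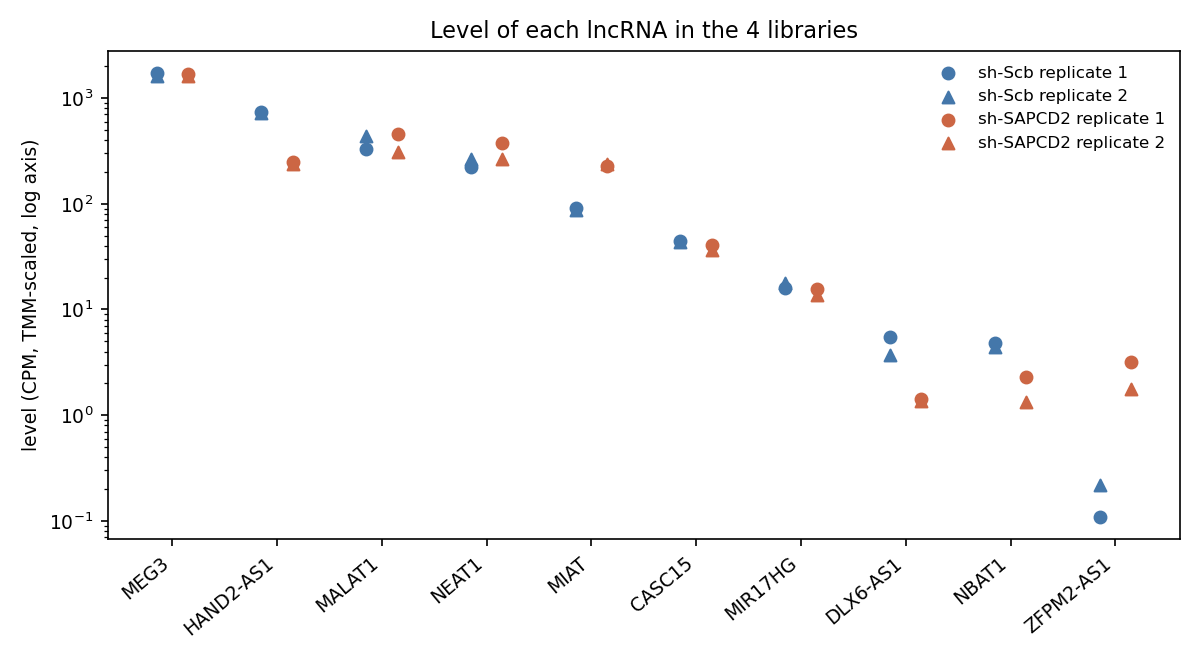
Level of each of the 10 long noncoding RNAs in each library, as CPM on a log axis, with a point for each library, blue for sh-Scb and orange for sh-SAPCD2, circles for the first and triangles for the second library of a group. HAND2-AS1 sat at 746 and 730 CPM in the control libraries and at 248 and 240 CPM in the sh-SAPCD2 libraries, while the libraries of the 2 groups overlapped for MALAT1, MEG3 and NEAT1.

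MALAT1, which gathers at nuclear speckles, where splicing factors are stored, is a single-exon gene at chr11:65497640-65508073 on the plus strand. Its level was 328 and 436 CPM in the control libraries and 455 and 310 CPM in the sh-SAPCD2 libraries. The sh-SAPCD2 libraries lay on both sides of the controls, and the group means of 382 ± 76.4 and 382 ± 103 CPM (SD, n = 2 each) gave a log2 fold change of 0.00073 (SE 0.216). That value moved between -0.31 and 0.25 when the processing changed or a library was left out, and its sign turned in 5 of the 12 alternatives. With its 2 libraries 0.41 apart on the log2 scale in the control group and 0.56 apart in the sh-SAPCD2 group, MALAT1 varied more than genes of 100 CPM or more usually did, whose median distance was 0.036 and 0.22. The mature 3′ end of MALAT1 has no poly(A) tail, and the library kit, in its standard protocol, selects polyadenylated RNA, so the part of this RNA that was counted is not known.

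NEAT1, the scaffold of paraspeckles, lies on the same strand of chromosome 11 (65422774-65445540). It was at 224 and 268 CPM in the control libraries and at 376 and 266 CPM in the sh-SAPCD2 libraries. The second sh-SAPCD2 library lay within the control range, and the log2 fold change of 0.38 (SE 0.184) did not pass the threshold. Counts per gene do not separate the short polyadenylated NEAT1 from the long form that builds the paraspeckle. The count of NEAT1 per count of MALAT1 was 0.683 and 0.614 in the control libraries and 0.826 and 0.858 in the sh-SAPCD2 libraries. The groups did not overlap in this ratio, but they also did not for the levels of 67.0% of all tested genes. Nothing is read from this separation, and the limit on the counted part of MALAT1 applies to the ratio too.

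MIAT, a nuclear RNA of neurons and the retina, lies at chr22:26646411-26676475 on the plus strand. It was at 90.8 and 87.9 CPM in the control libraries and at 230.0 and 236 CPM in the sh-SAPCD2 libraries. Both sh-SAPCD2 libraries were well above both controls, with means of 89.3 ± 2.03 and 233 ± 4.39 CPM. The log2 fold change was 1.38 (SE 0.0963), a 2.61-fold difference, which ranged from 1.34 to 1.41 over the alternatives. Among tested long noncoding RNAs with at least 1 CPM on average, 41 had a higher fold change. An unnamed gene on the opposite strand (ENSG00000206028) shared 2148 bases with the exons of MIAT, 13.5% of them, but it held at most 34 counts in any library, against 2418 or more for MIAT.

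MEG3 is expressed from the maternal copy of the imprinted DLK1-DIO3 locus, at chr14:100779410-100861031 on the plus strand, and has been described as a growth-restraining RNA. It was the most abundant member, at 1729 and 1629 CPM in the control libraries and 1684 and 1633 CPM in the sh-SAPCD2 libraries. The sh-SAPCD2 libraries lay inside the control range, and the log2 fold change was -0.018 (SE 0.0884), with a sign that turned in 2 of the 12 alternatives.

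CASC15 and NBAT1 occupy opposite strands of the 6p22 locus, in which common variants are associated with neuroblastoma risk, and both have been described as restraining the tumour cells. CASC15 spans chr6:21664184-22654455 on the plus strand. It was at 44.02 and 43.39 CPM in the control libraries and at 41.0 and 36.7 CPM in the sh-SAPCD2 libraries. The groups did not overlap, but the log2 fold change was small, -0.17 (SE 0.124), and did not pass.

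NBAT1 lies inside the CASC15 gene, at chr6:22133205-22147193 on the minus strand. It had 132 and 121 counts in the control libraries and 58 and 42 in the sh-SAPCD2 libraries, or 4.778 and 4.397 against 2.291 and 1.337 CPM. Both sh-SAPCD2 libraries were below both controls, and the log2 fold change was -1.35 (SE 0.313), 39.5% of the control level. The call rested on the second sh-SAPCD2 library, since the log2 fold change without it was -0.999 and did not pass, and NBAT1 was also not called when low genes were left in the test. The count of NBAT1 per count of CASC15 was 0.109 and 0.101 in the control libraries and 0.0558 and 0.0365 in the sh-SAPCD2 libraries. The exons of the 2 genes overlapped on opposite strands by 227 bases, 6.15% of those of NBAT1, and the kit named in the labels does not keep the strand of the RNA in its standard protocol, so reads from those bases cannot be told apart.

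HAND2-AS1, DLX6-AS1 and ZFPM2-AS1 lie antisense to or beside genes of developmental transcription factors. HAND2-AS1, at chr4:173527270-173659696 on the plus strand, is an antisense and partly divergent partner of HAND2, a factor of sympathetic neuron development. It had 20594 and 20097 counts in the control libraries and 6273 and 7526 in the sh-SAPCD2 libraries, or 746 and 730 against 248 and 240 CPM. The sh-SAPCD2 libraries were far below the controls and close to each other. The means were 738 ± 10.7 and 244 ± 5.77 CPM and the log2 fold change was -1.60 (SE 0.0922), which left 33.0% of the control level. It ranged from -1.63 to -1.49 over the alternatives, and 45 of the 1287 long noncoding RNAs with at least 1 CPM on average had a lower fold change. Patterns over the 4 libraries were compared with that of HAND2-AS1 by Euclidean distance of centred log2 CPM among 15681 genes. The closest was MAD2L1, a spindle checkpoint protein, at a distance of 0.0183. PCLAF, a partner of the replication clamp PCNA, followed at 0.041, and HMGN2, a nucleosome-binding protein, at 0.0651. Their log2 fold changes were -1.61, -1.59 and -1.59. With the libraries of each group close together, this distance mainly picks genes of similar fold change. Whether these genes share control with HAND2-AS1 was not tested.

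DLX6-AS1 spans chr7:96955141-97014088 on the minus strand, through an enhancer region of the homeobox genes DLX5 and DLX6. It had 153 and 101 counts in the control libraries and 36 and 43 in the sh-SAPCD2 libraries, or 5.54 and 3.67 against 1.42 and 1.37 CPM. The groups did not overlap, although the control libraries themselves differed widely, and the log2 fold change was -1.72 (SE 0.299), 30.3% of the control level. It ranged from -1.99 to -1.39 over the alternatives.

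ZFPM2-AS1 lies at chr8:105546089-106060524 on the minus strand, against ZFPM2, which encodes a cofactor of GATA factors. It had 3 and 6 counts in the control libraries and 80 and 55 in the sh-SAPCD2 libraries, or 0.109 and 0.218 against 3.16 and 1.75 CPM. The first control library was at the floor of 3 counts, which was 0.0955 to 0.119 CPM in these libraries, so the size of the change is poorly fixed. From the summed counts of 9 and 135, scaled by library size, the ratio was 14.6, with a 95% Clopper-Pearson interval of 7.46 to 32.6 that covers counting error only. The fitted log2 fold change of ZFPM2-AS1 was 3.87 and ranged from 3.38 to 4.44 over the alternatives. Its fitted fold change was exceeded by 1 tested long noncoding RNA with at least 1 CPM on average. ZFPM2-AS1 reached that average only through the sh-SAPCD2 libraries, so nothing is read from this rank.

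MIR17HG, whose microRNAs are shown above and promote proliferation, had 441 and 490 counts in the control libraries and 395 and 428 in the sh-SAPCD2 libraries, or 16.0 and 17.8 against 15.6 and 13.6 CPM. The groups were separated by a narrow margin and the log2 fold change of -0.21 (SE 0.156) did not pass. The closest pattern to MIR17HG over the 4 libraries was that of UCHL5, a proteasome-bound deubiquitinase, at a distance of 0.00981. UTP11, a ribosome biogenesis factor, followed at 0.0191, and PPP2R5A, a regulatory subunit of the phosphatase PP2A, at 0.021. Whether these genes share control with MIR17HG was not tested.

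**Figure D2:**
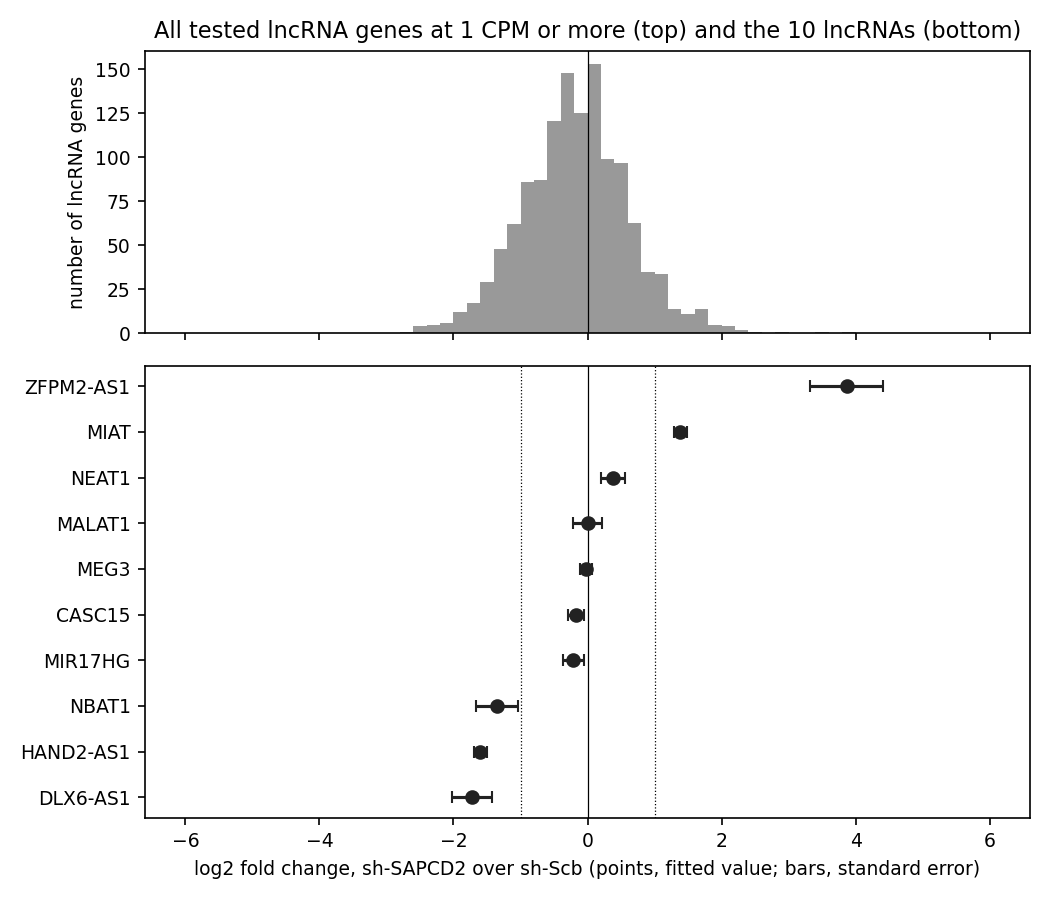
Log2 fold change, sh-SAPCD2 over sh-Scb, as a histogram over the 1287 tested long noncoding RNAs of at least 1 CPM on average (top) and for each member with its standard error as a bar (bottom), with dotted lines at the fold limit of a call. HAND2-AS1 at -1.60 and MIAT at 1.38 had short bars, MALAT1 lay at 0, and ZFPM2-AS1 at 3.87 rests on 9 control counts.

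Compared per kilobase, the members covered a wide range. With all annotated exonic bases as the length (GENCODE 44), the control level was 72.3 ± 3.04 CPM per kilobase for MEG3, 36.6 ± 7.33 for MALAT1, 34.7 ± 0.502 for HAND2-AS1, 10.8 ± 1.36 for NEAT1 and 5.62 ± 0.128 for MIAT (SD, n = 2 each). MALAT1 and HAND2-AS1 differed by less than the spread of MALAT1. MIR17HG, NBAT1 and CASC15 followed at 1.31 ± 0.101, 1.24 ± 0.073 and 1.19 ± 0.0121 CPM per kilobase. NBAT1 stood within the spread of MIR17HG, and CASC15 within that of NBAT1, while MIR17HG and CASC15 differed by more than theirs. DLX6-AS1 at 0.25 ± 0.0716 and ZFPM2-AS1 at 0.0612 ± 0.029 lay below them. In sh-SAPCD2 cells HAND2-AS1 was at 11.4 ± 0.271 and MIAT at 14.7 ± 0.276 CPM per kilobase, so MIAT, which had stood below HAND2-AS1 and NEAT1 in the controls, stood above HAND2-AS1, and within the spread of NEAT1 at 14.1 ± 3.41. The order depends on the length. With the canonical transcript alone, chosen after the data were seen, MEG3 and HAND2-AS1 led in the controls at 2660.0 and 589 CPM per kilobase. MALAT1 and NEAT1 kept 36.6 and 10.8, CASC15 moved up to 32.4, and MIAT and MIR17HG were at 23.8 and 22.6. With that length MIAT stayed below HAND2-AS1 in sh-SAPCD2 cells, at 62.0 against 195 CPM per kilobase. It also stayed below in CPM without a length, at 233 against 244. Of the counts on the 2347 tested genes that GENCODE 44 calls long noncoding RNA, the members together held 20.3% and 20.6% in the control libraries. In the sh-SAPCD2 libraries they held 19.5% and 16.0%.

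Neighbouring genes were measured to see whether a change in a member was shared across its locus. HAND2 stood at 679 and 675 CPM in the control libraries and at 534 and 709 CPM in the sh-SAPCD2 libraries, with a log2 fold change of -0.12 (SE 0.145, adjusted p = 0.573, from the same edgeR fit as every adjusted p below). The sh-SAPCD2 libraries lay on both sides of the controls, and without the second of them HAND2 passed at -0.34 with an adjusted p of 0.00141. The count of HAND2-AS1 per count of HAND2 went from 1.10 and 1.08 in the control libraries to 0.464 and 0.338 in the sh-SAPCD2 libraries. The exons of the pair overlapped by 867 bases, 24.1% of those of HAND2, whose reads could have been counted for either gene.

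At the DLX locus both homeobox genes beside DLX6-AS1 were lower. DLX6 was at 8.07 and 8.14 CPM in the control libraries and at 4.90 and 4.36 CPM in the sh-SAPCD2 libraries, a log2 fold change of -0.81 (SE 0.187, adjusted p = 0.0268). DLX5, 6308 bp from DLX6-AS1, was at 2.24 and 1.82 against 0.909 and 0.955 CPM, with a log2 fold change of -1.12 (SE 0.313, adjusted p = 0.0466). The DLX6 call was lost without either control library (adjusted p 0.129 and 0.133) and with low genes left in (0.0643), and the DLX5 call was lost in DESeq2 (0.14), with low genes left in (0.0856) and without any 1 library (0.0597 to 0.325). DLX6-AS1 and DLX6 shared 759 exonic bases on opposite strands.

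ZFPM2 itself was at 14.6 and 14.1 CPM in the control libraries and 11.1 and 8.31 CPM in the sh-SAPCD2 libraries, and its log2 fold change of -0.57 did not pass (SE 0.190, adjusted p = 0.0745). It passed with a correction for GC content and length (0.0314) and without the first sh-SAPCD2 library (0.00841). The pair had no exonic base in common. The count of ZFPM2-AS1 per count of ZFPM2 was 0.00743 and 0.0154 in the control libraries and 0.286 and 0.211 in the sh-SAPCD2 libraries. Of the next genes on chromosome 8, LRP12, a relative of the LDL receptor 956831 bp from ZFPM2-AS1, was lower (-0.68, adjusted p = 0.0199). OXR1, which protects against oxidative damage and lies 209620 bp from ZFPM2-AS1, was higher (0.49, adjusted p = 0.0454). The LRP12 call was lost with low genes left in (adjusted p = 0.0566) and without either control library (0.0995 and 0.19). The OXR1 call was lost in the same settings (0.115, 0.278 and 0.371) and when libraries were scaled by their totals (0.0527).

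Around CASC15 and NBAT1, SOX4, a transcription factor 65565 bp from CASC15, rose from 263 and 265 CPM to 369 and 415 CPM, with a log2 fold change of 0.57 (SE 0.103, adjusted p = 0.0130). NRSN1, a neuronal membrane protein 1471731 bp away on the far side of CASC15, fell by 0.80 on the log2 scale (SE 0.131, adjusted p = 0.00995). The SOX4 call was lost without either control library (adjusted p 0.186 and 0.178) and the NRSN1 call without the first of them (0.0722).

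Beside MEG3, no gene of the DLK1-DIO3 list passed among the 4 tested by edgeR, with 1 gene at an unadjusted p under 0.05 and 1 passing in DESeq2. That gene was DLK1, a paternally expressed NOTCH ligand, at 256 and 243 CPM in the control libraries and 294 and 416 CPM in the sh-SAPCD2 libraries (log2 fold change 0.51, SE 0.170, adjusted p = 0.0764, and 0.015 in DESeq2). It also passed with a correction for GC content and length (0.0292) and without either sh-SAPCD2 library (0.000377 and 0.012). MEG9, another maternal RNA of the locus, was at 0.34 (adjusted p = 0.204) and MEG8 at -0.26 (0.473). MIR770, whose hairpin lies within MEG3 on the same strand, was lower at -1.31 (SE 0.323, adjusted p = 0.0321). Its highest count was 65, reads of MEG3 itself could fall on its 98 bases, and the call was lost in DESeq2 (0.0703), with low genes left in (0.0695) and without either control library (0.163 and 0.08). MIATNB, which overlaps MIAT on the same strand, was at -0.63 (SE 0.346, adjusted p = 0.230) while MIAT was higher. Its highest count was 81, and reads of MIAT could fall on the 241 exonic bases the 2 genes share. FRMD8, beside the pair MALAT1 and NEAT1, was at 0.13 (adjusted p = 0.582). Some nearest tested genes lay far off, with SLITRK5 3651414 bp from MIR17HG, MN1 1071802 bp from MIAT and FBXO8 576962 bp from HAND2-AS1. GPC5, 1029 bp from MIR17HG, had too few counts to be tested. The neighbours SCRG1, FBXO8, RTL1, MN1, SLITRK5, SEM1 and MIR493HG did not pass, at log2 fold changes from -0.55 for MIR493HG to 0.78 for SLITRK5, though without 1 sh-SAPCD2 library MIR493HG (adjusted p = 0.0465, without the first) and SEM1 (0.02, without the second) did.

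**Figure D3:**
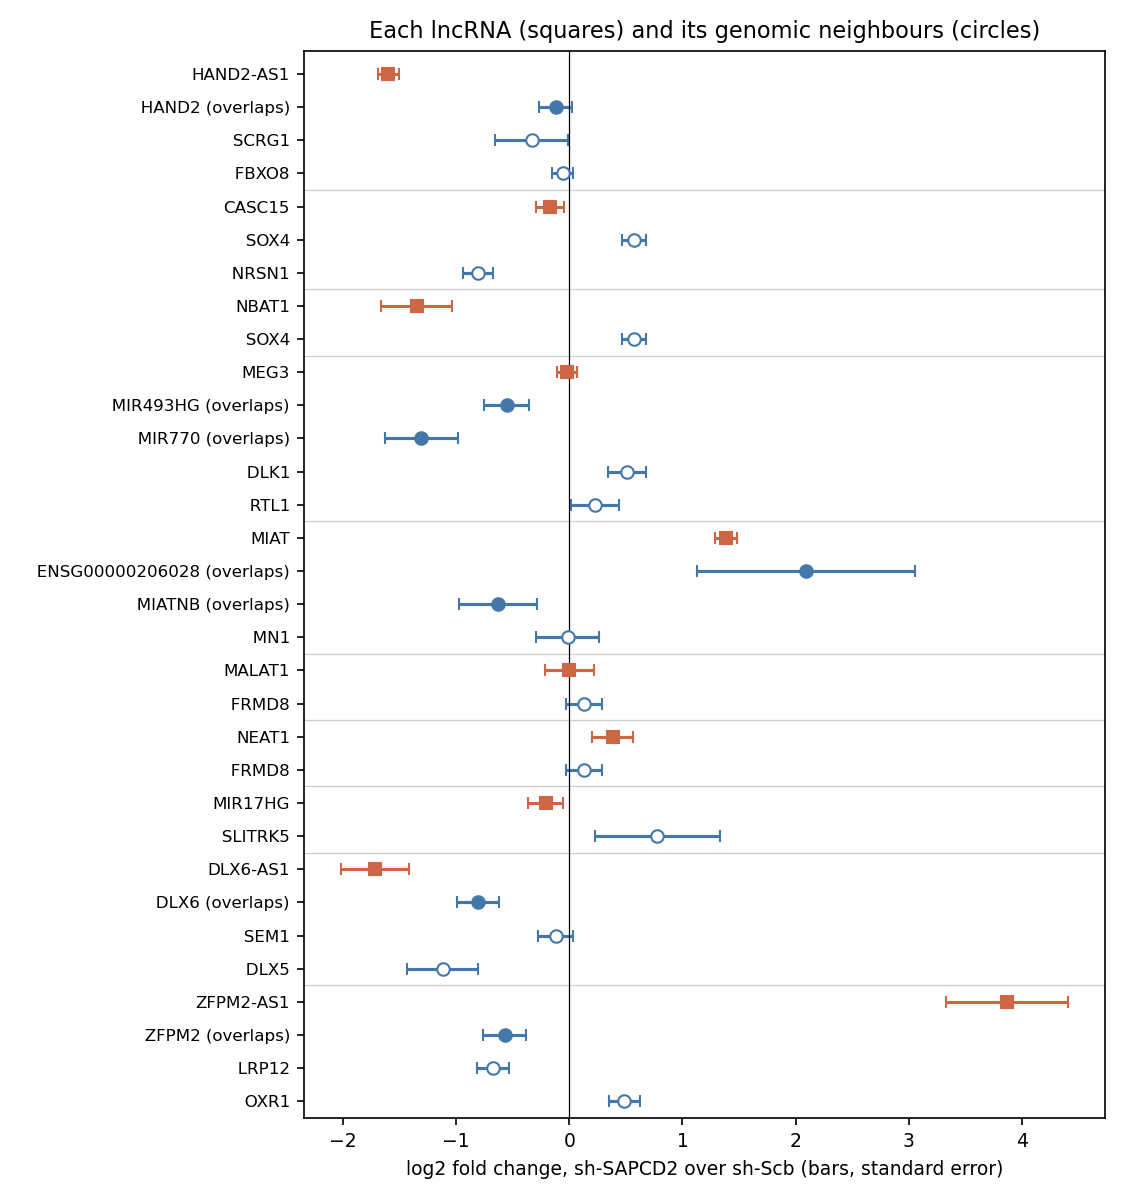
Log2 fold change, sh-SAPCD2 over sh-Scb, of each member (squares) and of the tested neighbours described here (circles, filled where they overlap the member), with standard errors as bars. HAND2-AS1 is at -1.60 and HAND2 at -0.12, whereas DLX6-AS1, DLX6 and DLX5 lay on the same side at -1.72, -0.81 and -1.12.

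Gene lists tied to the members by known function were then counted at an adjusted p under 0.05, a level that 12.4% of all tested genes passed in the higher and 12.5% in the lower direction. Of 18 paraspeckle proteins, the partners of NEAT1, 8 fell and 0 rose, with a median log2 fold change of -0.29. HNRNPH3 fell by 0.78 (adjusted p = 0.00499), HNRNPUL1 by 0.73 (0.00658), NUDT21 by 0.74 (0.00890) and CPSF6 by 0.70 (0.00787). NUDT21 and CPSF6 are subunits of the same 3′ end processing factor, and HNRNPH3 and HNRNPUL1 bind RNA. The core paraspeckle proteins SFPQ and NONO, named after their values were seen, fell by 0.43 and 0.43 (adjusted p = 0.0198 and 0.0190). By an unadjusted p under 0.05, 1 paraspeckle gene was higher, and DESeq2 gave 0. The count that fell was 3 and 2 without either control library, and 13 and 15 without either sh-SAPCD2 library. Without either control library the calls of CPSF6 (adjusted p 0.0694 and 0.0728), SFPQ (0.348 and 0.288) and NONO (0.326 and 0.305) were lost, and without the second that of HNRNPUL1 (0.0793).

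Of 14 nuclear speckle proteins, with which MALAT1 is found, 10 fell and 0 rose by edgeR (1 higher at an unadjusted p under 0.05, 0 by DESeq2), with a median of -0.47. SRRM2, a core protein of the speckle, fell by 1.10 on the log2 scale (SE 0.108, adjusted p = 0.00321), from a mean of 836 ± 9.14 to 389.6 ± 39.95 CPM. SON, another core protein, named after its value was seen, was among the 4 that did not pass (-0.30, adjusted p = 0.0995). SRRM1 fell by 0.69 (adjusted p = 0.00866), SRSF2 by 0.63 (0.00722) and ACIN1 by 0.56 (0.0102), all splicing proteins. The count was 1 without either control library, and 12 and 13 without either sh-SAPCD2 library. The calls of SRRM1 (adjusted p 0.0601 and 0.106), SRSF2 (0.095 and 0.125) and ACIN1 (0.169 and 0.181) were lost without either control library, and that of SRRM2 was kept in each setting.

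Of the regulators and relatives of MIR17HG, 5 of 6 were tested, because MYC had no count in 3 libraries and 3 counts in the other. MYCN, a known activator of the cluster, rose from 3235 and 3178 CPM to 5904 and 7091 CPM, a log2 fold change of 1.02 (SE 0.111, adjusted p = 0.00378). E2F2 fell by 0.99 (adjusted p = 0.00401), E2F1 by 0.63 (0.0297) and MCM7, the host gene of the related miR-106b~25 cluster, by 0.44 (0.0489). The RNA of described activators of the cluster changed in both directions, MYCN up and E2F1 and E2F2 down. The log2 fold change of MIR17HG was -0.21, and whether these activators bear on it was not tested. The calls of E2F1 and MCM7 were lost with low genes left in (adjusted p 0.0908 and 0.122), without the first control library (0.148 and 0.324) and without the second (0.117 and 0.309), which left 1 gene that fell, E2F2.

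Targets described for the miR-17~92 microRNAs, whose seeds are printed above, also went both ways. Of 18 tested, 4 rose and 4 fell, with a median of -0.090. STAT3 rose by 0.66 (adjusted p = 0.00764), BCL2L11, a pro-apoptotic protein, by 0.60 (0.0185) and DKK3, a secreted WNT modulator, by 0.57 (0.0201), and E2F2 fell as given above. THBS1, an inhibitor of angiogenesis (1.08, adjusted p = 0.0448), CDKN1A, an inhibitor of the cell cycle (-1.51, 0.0227), RBL2, a relative of the retinoblastoma protein (-0.48, 0.0311), and E2F1, the first 3 named after their values were seen, made up the rest. No target remained past the threshold in the higher direction without either control library, by edgeR, where STAT3 had an adjusted p of 0.133 and 0.119, BCL2L11 of 0.15 and 0.206, DKK3 of 0.248 and 0.213 and THBS1 of 0.127 and 0.193, and RBL2 was lost on the lower side (0.336 and 0.244). THBS1 was also lost in DESeq2 (0.095) and without the first sh-SAPCD2 library (0.0775), and with low genes left in the call was kept by 1 target that was higher, STAT3, and 1 that was lower, E2F2.

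**Figure D4:**
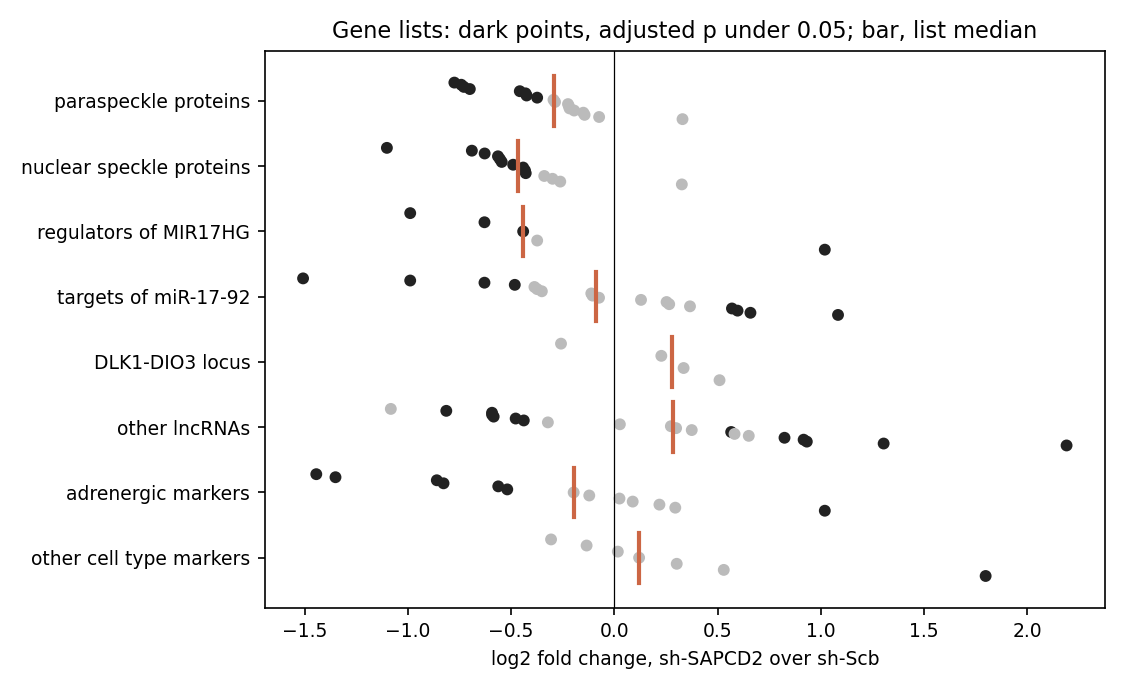
Log2 fold change of every tested gene of each list, sh-SAPCD2 over sh-Scb, with the median of the list as a bar and genes past the adjusted p of 0.05 as dark points. Nuclear speckle proteins had a median of -0.47 and paraspeckle proteins of -0.29, while the targets of the miR-17~92 microRNAs lay on both sides of 0.

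The libraries held 25347900 to 31850997 counts. Of 13 adrenergic neuroblastoma markers, all tested, 1 (MYCN) rose and 6 fell, among them DBH, which makes noradrenaline (log2 fold change -1.35, adjusted p = 0.00207), and the granule protein CHGB (-0.83, 0.00387). The 6 that did not pass were PHOX2A (0.29), TH (0.22), GATA3 (0.089), GATA2 (0.024), HAND2 (-0.12) and CHGA (-0.20). The summed level of the 13 markers was 7040.0 and 6880.0 CPM in the control and 8730.0 and 10700.0 CPM in the sh-SAPCD2 libraries. MYCN held the larger part of it in the sh-SAPCD2 libraries. Without the first sh-SAPCD2 library 5 rose, without either control library 4 fell, and without the second sh-SAPCD2 library 9 fell. Of 11 markers of other cell types, 7 were tested, 1 rose and 0 fell (0 at an unadjusted p under 0.05 and 0 by DESeq2). Their summed level was 193 and 210.0 CPM in the control and 239 and 188 CPM in the sh-SAPCD2 libraries, most of it LUM, and PRRX1, a mesenchymal factor, had no count. In bulk samples fewer cells with a transcript and less transcript per cell cannot be told apart, and the part of these markers in the members' values was not tested.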

How the data were processed

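RNA of SK-N-BE(2) cells was sequenced in 4 libraries. The authors aligned the reads to hg38 with HISAT2 2.2.0 (from the submitters' processing notes) and deposited whole-number counts per gene, used here as deposited. The annotation release and strand setting are not given in the sources used here. Genes passing edgeR's filterByExpr (minimum count 10, minimum total 15) were scaled by TMM and compared by the quasi-likelihood test of edgeR 4.0.16 (R 4.3.3), with Benjamini-Hochberg adjustment over all 18779 genes. CPM are TMM-scaled. Standard errors are the log2 fold change divided by the root of the F statistic. Positions and exons came from GENCODE 44, which matched 17467 tested genes, and sequences from RefSeq. The floor for detection was 3 counts, for counting error only.

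The members and lists were chosen with earlier results of these data known. Genes named were all members, the tested genes nearest to each, and in each list the 4 with the smallest adjusted p, apart from a few that are not reported here. The script was tested on simulated data. Alternatives were DESeq2 1.42.0, DESeq2 size factors or library totals in place of TMM, no filter or a mean of at least 1 CPM, a correction for GC content and length, the replicate number as a block, both together, thresholds without a fold limit, and each library left out.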

Additional observations from a re-analysis of the deposited data

How the results depend on the processing

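Over all genes, 880 were called higher and 968 lower. With low genes left in the test 553 were called higher, without the fold limit 2326 higher and 2339 lower, and leaving out 1 library gave 705 to 1323 higher. DESeq2 gave 827 and 849. No scaling moved the median of all genes by over 0.1. Samples of the same replicate number shared only that number (correlation of their deviations -0.0188), and with the number as a block 1044 genes were higher and 1160 lower, with no member's call changed. Of the calls among members, only that of NBAT1 was lost, with low genes left in and without the second sh-SAPCD2 library. The log2 fold change of HAND2-AS1 moved by more than the spread, to -1.49 with the GC and length correction, both alone and together with the block. Over all alternatives and named genes outside the members, 574 values kept their side of the threshold, 17 passed newly, 67 lost it and 0 reversed. Leaving out 1 library moved the counts of the lists to 0 to 1 higher and 2 to 15 lower for paraspeckle proteins, 0 to 1 and 1 to 13 for nuclear speckle proteins, 1 to 4 lower for relatives of MIR17HG, 0 to 6 and 2 to 7 for targets of miR-17~92, 0 to 1 higher for the DLK1-DIO3 locus, 3 to 10 and 0 to 7 for other long noncoding RNAs, 1 to 5 higher for adrenergic markers and 1 to 2 higher and 0 to 1 lower for markers of other cell types. With 1 control library the spread came from the sh-SAPCD2 pair alone, whose libraries lay farther apart. With low genes left in, the list of MIR17HG relatives had 1 lower, the targets 1 higher and 1 lower, and the other long noncoding RNAs 2 higher and 0 lower. In the DLK1-DIO3 locus 1 gene was higher in DESeq2, with the block, with the GC and length correction and with both, and 3 markers of other cell types were higher with that correction and 2 with both. The cause of these changes was not tested. Groups of 2 libraries limit every comparison, and ZFPM2-AS1, DLX6-AS1 and NBAT1 are limited by low counts.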

Other observations

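Other long noncoding RNAs studied in cancer or neural cells were counted in the same way. Of 25 listed, 20 were tested, 6 rose and 6 fell at an adjusted p under 0.05 in the same edgeR fit, with a median log2 fold change of 0.29. H19, the imprinted growth-linked RNA, rose by 1.30 on the log2 scale (SE 0.230, adjusted p = 0.0123), from a mean of 1073 ± 0.120 to 2650.0 ± 944 CPM, with the sh-SAPCD2 libraries far from each other. CYTOR rose by 0.93 (adjusted p = 0.0153) and DANCR by 0.57 (0.0153), and LINC00467 fell by 0.81 (0.0177). MYCNUT, RMST, LINC01010 and FENDRR had no count in any library. Without either control library 3 of the list were higher and 0 lower by edgeR, and without the first sh-SAPCD2 library 10 were higher. The call of H19 was lost with low genes left in (adjusted p = 0.0541), as was that of LINC00467 (0.0508), which was also lost without either control library (0.11 and 0.0632), like that of DANCR (0.168 and 0.28), and CYTOR was lost without the second (0.0851).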
